A study of Mus musculus with 5 samples.

Results

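Retinoid metabolism and receptors are represented here by 9 genes: Dhrs3, Rdh10, Rara, Rarb, Rarg, Rxra, Crabp1, Crabp2 and Cyp26b1. The set was chosen because 2 of its members, Dhrs3 and Rarb, were far higher in dynamic suspension culture than in conventional 3D culture of the same tumour line. All 9 were found by gene symbol among the 54100 genes of the deposited table. That comparison is therefore given as a description of what chose the set, and comparisons that use either of its libraries carry the same limit.

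RNA was measured in B16F10, a pigmented mouse skin melanoma line, in 5 libraries with 1 library per group. The libraries of dynamic suspension, conventional 3D culture and shControl carry the genotype label WT, the other 2 carry the genotype labels knockdown and overexpression, which by their titles refer to HIF-1α, and all 5 are labelled untreated. HIF-1α is a transcription factor subunit that accumulates in low oxygen, and the series asks how it relates to stem-like tumour cells and the p53 pathway. Per the labels, all 5 cultures share 1 growth protocol, serum-free medium without added growth factors on a shaker, so the culture methods are told apart by the sample titles only, and each library pooled 3 repeats. How the knockdown, overexpression and control lines were made, and whether any is a single clone, is not given in the sources used here.

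Vitamin A enters cells as retinol and is oxidised to retinaldehyde by enzymes such as RDH10, a step that DHRS3 runs backwards by reducing retinaldehyde to retinol. Retinaldehyde dehydrogenases then make retinoic acid, CRABP proteins carry it in the cytosol, and CYP26 enzymes degrade it. Retinoic acid binds the receptors RARα, RARβ and RARγ, which pair with RXR on direct repeats of a short half-site in DNA. Dhrs3, Rarb, Crabp2 and genes of the CYP26 family are textbook retinoic acid targets, and B16 melanoma cells are a classical model in which retinoic acid slows growth and induces differentiation.

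Levels are given as TMM-scaled CPM, which is each gene's share of its library after edgeR's TMM scaling between libraries, and counts in parentheses are the deposited values. The summed values were between 59493240 and 61267892 in the libraries of shControl and the culture methods, whose columns were taken as estimated counts, and were 14803426 and 15393189 for the libraries with the labels knockdown and overexpression, whose columns hold plain counts. Low values of the estimated counts pile up at multiples of 4 for a cause that was not tested, so a printed count of these 3 columns may not be in the same unit as a plain count. The kind of column and the group cannot be told apart when either of the latter is set against shControl. Hif1a itself stood at 61.3 CPM in shControl and 95.1 CPM in the library labelled knockdown, against that label, and at 384.3 CPM in the library labelled overexpression. It was at 541.6 CPM in conventional 3D culture and 390.5 CPM in dynamic suspension, both labelled WT. The library labelled overexpression was thus above shControl but not above either culture library. Each of the 8 melanocyte markers reached at least 1 CPM in each of the 5 libraries. Fibroblast markers summed to between 15.8 and 128.7 CPM, immune markers to between 0.853 and 15.8 CPM and endothelial markers to between 1.85 and 10.7 CPM, while epithelial and erythroid markers summed to under 1 CPM in each library. With 1 library per group no difference between conditions could be tested, and intervals are 95% intervals of counting error alone. They may be too narrow where counts are estimated.

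Upstream sequences are shown for Rarb, Dhrs3 and Cyp26b1, the 3 members with the highest ratios of dynamic suspension to conventional 3D culture. They come from RefSeq on GRCm38.p6, where 14 windows of 300 bases (250 before to 50 after a transcription start) matched 7 of the 9 genes. Rarb lies on the minus strand, and the 30 bases at chr14:16575507-16575536 hold a direct repeat of half-sites spaced by 5 bases, the arrangement known as DR5. Its half-sites are in capitals and lie 53 to 37 bases upstream of this RefSeq start, within annotated exons, which cover the whole stretch before the start in that window. For Dhrs3 the 250 bases before its first start are shown (chr4:144892577-144892826, plus strand). For Cyp26b1 the 152 bases outside annotated exons are shown (chr6:84593909-84594060, minus strand), with TATAAA in capitals.
Rarb: cgggaagGGTTCAccgaaAGTTCActcgca
Dhrs3: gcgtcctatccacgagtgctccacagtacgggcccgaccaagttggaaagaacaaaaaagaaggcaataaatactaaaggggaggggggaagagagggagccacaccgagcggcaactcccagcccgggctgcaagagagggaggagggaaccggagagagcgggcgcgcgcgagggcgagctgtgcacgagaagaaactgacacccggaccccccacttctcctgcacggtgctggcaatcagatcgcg
Cyp26b1: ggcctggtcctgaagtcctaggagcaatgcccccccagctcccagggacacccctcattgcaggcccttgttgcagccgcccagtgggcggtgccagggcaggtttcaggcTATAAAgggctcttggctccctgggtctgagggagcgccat

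The half-sites searched on both strands were the consensus AGGTCA, its close form GGGTCA, and the variants with spelling AGTTCA or with spelling GGTTCA. A DR5 was counted where any 2 of them stood in the same direction with 5 bases between. DR5 was found in 0.0974% of all 32851 windows (32 windows) and in 1 of the 14 windows of the members, that of Rarb. The variants AGTTCA and GGTTCA are the spellings of the Rarb repeat itself, so nothing is read from its match beside that share. Repeats spaced by 1 and by 2 bases were also searched, and stood in 0.222% and 0.268% of all windows and in none of the members. ACGTG, searched as well, stood in 19.6% of all windows and in windows of Rara and Rarg. The 3 windows of Dhrs3 and the 1 window of Cyp26b1 held 0 single half-sites, against 43.7% of all windows that held at least 1. TATAAA, which stands in the Cyp26b1 sequence above, was found in 13.6% of all windows. Windows of 1 gene can overlap, and a match or its absence describes these letters only.

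Dhrs3 encodes the short-chain dehydrogenase that returns retinaldehyde to retinol (ENSMUSG00000066026, GRCm38 chromosome 4, 144892827 to 144928209, plus strand). Its level was 0.977 CPM in conventional 3D culture (52 counts), 210.9 CPM in dynamic suspension (12743), 45.3 CPM in shControl (2788), 16.8 CPM in the library labelled knockdown (256) and 0.595 CPM in the library labelled overexpression (10). Dhrs3 was thus near 1 CPM or below it in a pair of libraries and well above in the other 3, with no overlap of the counting intervals of any 2 of the 5 except the lowest pair (0.73 to 1.28 CPM in conventional 3D culture and 0.286 to 1.1 CPM in the library labelled overexpression). In dynamic suspension the level was 208.4-fold that of conventional 3D culture on the fitted scale, the contrast by which the gene was chosen (log2 ratio 7.70, interval 7.36 to 8.18).

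Rdh10 encodes the retinol dehydrogenase that works in the opposite direction to DHRS3 (ENSMUSG00000025921, chromosome 1, 16105774 to 16133734, plus strand). It was measured at 3.10, 3.46, 4.04, 3.74 and 3.45 CPM in conventional 3D culture, dynamic suspension, shControl and the libraries labelled knockdown and overexpression. These levels lay within a narrow range, and the counting intervals of the lowest and the highest overlapped only slightly (2.65 to 3.61 CPM and 3.56 to 4.58 CPM). The gene was beyond 2-fold in 0 of the 6 comparisons, and its log2 ratio of dynamic suspension to conventional 3D culture was 0.16 (interval -0.14 to 0.46). The transcripts of these 2 enzymes of the retinol and retinaldehyde step differed in how far they varied across the libraries. Dhrs3 was chosen for a wide difference between libraries, so nothing is read from this.

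**Figure D1:**
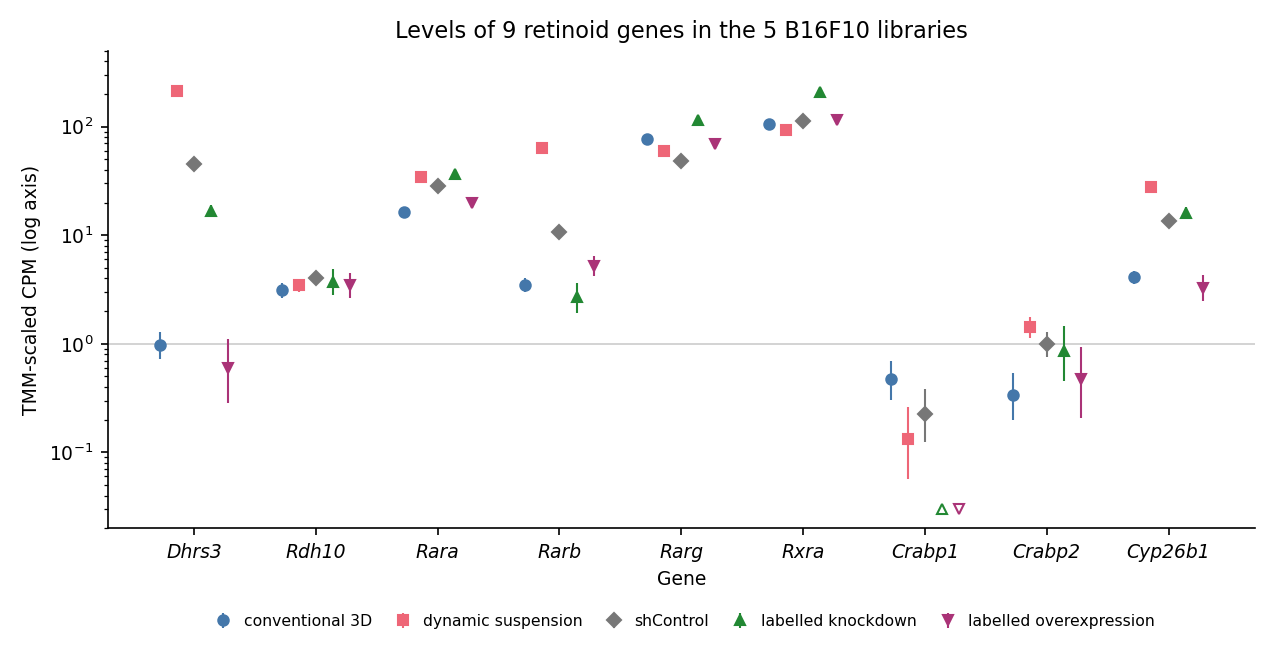
Level of each of the 9 genes in each library, in TMM-scaled CPM on a log axis, with 95% Poisson counting intervals as bars; each point is 1 library, the grey line marks 1 CPM, and open symbols at the bottom edge mark counts of 0. Dhrs3, chosen for a difference shown here, spans from 0.595 to 210.9 CPM, and Rdh10 stays between 3.10 and 4.04 CPM.

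Among the receptors, Rarb encodes RARβ (ENSMUSG00000017491, chromosome 14, 16430839 to 16819156, minus strand). It stood at 3.48 CPM in conventional 3D culture (185 counts), 64.1 CPM in dynamic suspension (3875), 10.8 CPM in shControl (664), 2.69 CPM in the library labelled knockdown (41) and 5.24 CPM in the library labelled overexpression (88). Dynamic suspension was far above the other 4 libraries, and shControl was above the remaining 3. The log2 ratio of dynamic suspension to conventional 3D culture, also a contrast by which the set was chosen, was 4.19 (interval 3.99 to 4.43). Exons of 2 genes on the opposite strand, Top2b and Gm48162, cover 38.4% of the exonic length of Rarb, and whether the counting used strand is not given in the sources used here. Top2b, a DNA topoisomerase gene, stood between 76.9 and 133.9 CPM in the 5 libraries with a log2 ratio of 0.21 for dynamic suspension against conventional 3D culture, and Gm48162 had at most 1 count in each library.

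Rara encodes RARα (ENSMUSG00000037992, chromosome 11, 98927818 to 98974942, plus strand) and was at 16.5, 34.2, 28.4, 36.3 and 19.9 CPM in conventional 3D culture, dynamic suspension, shControl and the libraries labelled knockdown and overexpression. Conventional 3D culture and the library labelled overexpression were the 2 lowest, as they were for Dhrs3 and Cyp26b1. Of its stretches of 50 bases 0.23% also occur in other genes, against 0 for the other 8 members. Rarg encodes RARγ, the form known for its expression in skin (ENSMUSG00000001288, chromosome 15, 102234938 to 102257517, minus strand), and was at 77.4, 59.6, 48.5, 115.4 and 69.6 CPM in the same order. Rxra encodes RXRα, the shared partner of the RARs (ENSMUSG00000015846, chromosome 2, 27676440 to 27762957, plus strand), and was at 106.7, 92.5, 112.4, 209.5 and 114.4 CPM. Both Rarg and Rxra were highest in the library labelled knockdown, and neither was beyond 2-fold between dynamic suspension and conventional 3D culture (log2 ratios -0.38 and -0.21).

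Per kb of annotated exonic length, which allows levels to be compared between genes, the 3 RAR genes together came to 34.0 CPM per kb in dynamic suspension and 22.6 in conventional 3D culture. The sum was 19.9 CPM per kb in shControl, 21.9 in the library labelled overexpression and 35.9 in the one labelled knockdown. Rarb made up 35.8% of this sum in dynamic suspension, against 2.92% in conventional 3D culture and 10.3% in shControl. Its share was 4.55% in the library labelled overexpression and 1.42% in the one labelled knockdown. Rarg held the highest share in each of the 5 libraries, from 41.2% in dynamic suspension to 80.4% in conventional 3D culture. Rara held from 16.7% in conventional 3D culture to 32.6% in shControl. Dynamic suspension and the library labelled knockdown had similar sums per kb with different make-up: the former with Rarb as the second form, the latter with Rarb as the lowest. Rarb was chosen for its level in dynamic suspension, so its share there describes what chose it. These 2 libraries also differ in kind of column, and 38.4% of the exonic length of Rarb is shared with other genes.

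**Figure D2:**
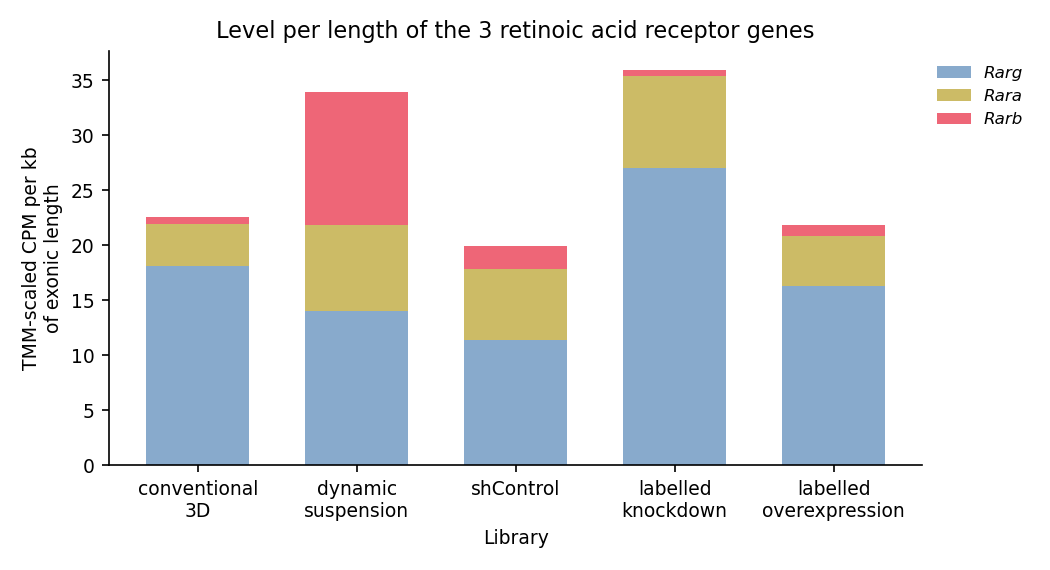
Stacked bars of the level of Rarg, Rara and Rarb in each library, in TMM-scaled CPM per kb of exonic length, from 0; each bar is 1 library, with no error bar. Rarb is 35.8% of the bar in dynamic suspension and at most 10.3% in the other 4.

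Among all 9 members, Rxra was the first per kb in each library except dynamic suspension. There Dhrs3, chosen for its level in that library, was the first, at 72.1 CPM per kb against 16.9 for Rxra. In conventional 3D culture and the library labelled overexpression Dhrs3 was the eighth of the 9, at 0.334 and 0.203 CPM per kb. In conventional 3D culture the neighbours Cyp26b1, Rdh10 and Rarb were close to each other, at 0.762, 0.745 and 0.66 CPM per kb.

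Cyp26b1 encodes a retinoic acid hydroxylase, the degrading end of the pathway (ENSMUSG00000063415, chromosome 6, 84571414 to 84593908, minus strand). It was at 4.08 CPM in conventional 3D culture (217 counts), 28.0 CPM in dynamic suspension (1690), 13.4 CPM in shControl (828), 16.1 CPM in the library labelled knockdown (245) and 3.28 CPM in the library labelled overexpression (55). As with Dhrs3, the 2 low libraries were conventional 3D culture and the one labelled overexpression. The log2 ratio of dynamic suspension to conventional 3D culture was 2.77 (interval 2.57 to 2.99). The other CYP26 hydroxylase genes were near or at 0: Cyp26a1 had 8 counts in shControl and Cyp26c1 had 4, and both had 0 in the remaining 4 libraries.

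The cellular retinoic acid binding proteins were sparse. Crabp2, which delivers retinoic acid to the RARs (ENSMUSG00000004885, chromosome 3, 87948666 to 87953376, plus strand), was at 0.338, 1.42, 0.99, 0.853 and 0.476 CPM in conventional 3D culture, dynamic suspension, shControl and the libraries labelled knockdown and overexpression, from counts of 18, 86, 61, 13 and 8. Conventional 3D culture was the lowest and dynamic suspension the highest. The counting intervals of conventional 3D culture (0.20 to 0.53 CPM) and the library labelled overexpression (0.21 to 0.94 CPM) overlapped. In each comparison except dynamic suspension against shControl the mean of the pair fell short of 1 CPM. Crabp1 (ENSMUSG00000032291, chromosome 9, 54764748 to 54773110, plus strand) had 25 counts in conventional 3D culture, 8 in dynamic suspension and 14 in shControl. Both libraries with plain counts, labelled knockdown and overexpression, had 0, with counting intervals that reach up to 0.242 and 0.220 CPM. The 2 binding proteins were in opposite order between the culture methods, both at levels where a few counts decide the ratio.

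Between dynamic suspension and conventional 3D culture, 7 of the 9 members passed a mean of 1 CPM. Beyond 2-fold means a log2 ratio of at least 1 in size with an interval that excludes a ratio of 1. By that rule 4 members were higher in dynamic suspension (Dhrs3, Rarb, Cyp26b1 and Rara) and 0 were lower. Of the 12875 genes tested, 6.47% were higher and 7.68% lower, and since the set was chosen on this contrast nothing is read from the count. Rara was at the edge of the rule, with a log2 ratio of 1.05 (interval 0.94 to 1.17). The median log2 ratio was 1.05 over the 7 members and -0.02 over all genes. Higher calls were 45.7% of all calls, against 61.3% when libraries were scaled by their totals. That scaling moved the median log2 ratio of the genes tested up by 0.188. Of the fibroblast markers 6 of 8 were lower in dynamic suspension. The 8 summed to 37.6 against 128.7 CPM, with 0 of 8 at a count of 0 in either library. Pdgfrb, on the same list, went the other way short of 2-fold, at 11.2 against 7.48 CPM. Of 2 measured immune markers 1 was lower, Lyz2 (0.811 against 2.80 CPM), and 0 were higher. Of the melanocyte markers 1 of 8 was lower, Pmel, and the sums were 19040 and 32470 CPM. Endothelial markers summed to 1.85 against 10.7 CPM, all of the latter from Vwf, with the other 5 of 6 at a count of 0 in conventional 3D culture. Pecam1 and Kdr went the other way, with 46 counts (0.761 CPM) and 3 counts in dynamic suspension. The part of these cell type markers in the members' ratios was not tested.

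Against shControl, which shares its kind of column with both culture libraries, dynamic suspension had 3 of 8 tested members higher and 0 lower. The background was 13.8% higher and 14.9% lower. Rarb had a log2 ratio of 2.57 (interval 2.45 to 2.69), Dhrs3 of 2.22 (2.16 to 2.28) and Cyp26b1 of 1.06 (0.94 to 1.18), and Cyp26b1 was no longer beyond 2-fold when scaled by totals (0.99). Conventional 3D culture against shControl had 0 of 7 tested members higher and 3 lower, with a background of 14.1% higher and 14.9% lower. Dhrs3 had a log2 ratio of -5.48 (interval -5.96 to -5.14), Cyp26b1 of -1.71 (-1.94 to -1.50) and Rarb of -1.62 (-1.88 to -1.40). Scaling by totals moved the median log2 ratio of the genes tested in this last comparison by -0.253. With it 31.8% instead of 48.6% of all calls were higher, and Rara joined the lower genes (-1.04 against -0.78). For the 3 leading members, shControl thus lay between the culture libraries, with dynamic suspension above it and conventional 3D culture below. These comparisons share libraries with the contrast that chose the set and with each other.

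The summed fibroblast markers were 128.7 CPM in conventional 3D culture and 38.4 CPM in shControl, with 6 of 8 higher in the former, and 37.6 CPM in dynamic suspension, where 0 of 6 tested markers were beyond 2-fold of shControl. Other markers differed between dynamic suspension and shControl: 2 of 8 melanocyte markers were lower (sums of 19040 and 25480 CPM), the 1 measured immune marker, Cd68, was higher (13.2 against 3.56 CPM) and the 1 measured endothelial marker, Vwf, was lower (1.04 against 3.09 CPM). In conventional 3D culture against shControl 1 of 8 melanocyte markers was lower, and both measured immune markers and Vwf were higher. The part of these markers in the members' ratios was not tested. In bulk RNA, fewer cells of a type and less RNA per cell cannot be told apart.

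The libraries labelled overexpression and knockdown were compared with each other within plain counts, and neither was used to choose the set. Of 7 members tested, 2 were lower in the library labelled overexpression and 0 were higher, against a background of 14.8% lower and 17.5% higher among 12305 genes. Dhrs3 was lower, at 10 against 256 counts (log2 ratio -4.56, interval -5.90 to -3.92), and ranked 10 from the lowest of all genes tested. Cyp26b1 was lower, at 55 against 245 counts (log2 ratio -2.25, interval -2.75 to -1.87). The receptors Rara, Rarg and Rxra had log2 ratios of -0.86, -0.73 and -0.87, short of 2-fold. Rarb went the other way, at 88 against 41 counts (log2 ratio 0.93, interval 0.41 to 1.53), and crossed 2-fold when scaled by totals (1.01). Dhrs3 and Rarb, which were both high in dynamic suspension, were therefore in opposite order between these libraries. Hif1a was 4.04-fold higher in the library labelled overexpression than in the one labelled knockdown, whose label its own level goes against. Of the melanocyte markers 3 of 8 were higher and 0 lower, with summed levels of 29130 against 15400 CPM. Of the fibroblast markers 3 of 4 measured were lower, with sums of 15.8 against 35.6 CPM and 4 and 3 of 8 at a count of 0. The 1 measured immune marker, Cd68, was higher (8.40 against 0.788 CPM), as was the 1 measured endothelial marker, Vwf (4.88 against 2.17 CPM). The part of these markers in the members' ratios was not tested.

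Against shControl the library labelled knockdown had 1 of 7 tested members higher, Rarg (log2 ratio 1.25, interval 1.17 to 1.34), and 2 lower, Rarb (-1.98, interval -2.50 to -1.55) and Dhrs3 (-1.43, interval -1.62 to -1.25). The background was 8.04% higher and 15.6% lower. Higher calls were 34.0% of all calls, or 25.8% with factors from genes that overlap no other gene. Those factors moved the median log2 ratio of the genes tested by -0.103. The library labelled overexpression had 0 of 7 higher and 3 lower, against a background of 16.1% higher and 20.1% lower: Dhrs3 (-6.13, interval -7.31 to -5.37), Cyp26b1 (-2.02, interval -2.46 to -1.64) and Rarb (-1.03, interval -1.38 to -0.72). Rarb was short of 2-fold when scaled by totals (-0.96). Both comparisons use the same shControl library and set plain against estimated counts. Melanocyte markers were lower for 3 of 8 in the library labelled knockdown, and for 1 of 8 lower and 1 higher in the library labelled overexpression. Of 6 measured fibroblast markers 3 were lower and 2 higher in the library labelled knockdown (Col3a1 at 0.0656 against 8.70 CPM), and 4 were lower and 1 higher in the library labelled overexpression (Col1a2 at 0 against 679 counts). Of the 8 fibroblast markers 3 and 4 were at a count of 0 in these 2 libraries and 0 in shControl. The immune marker Cd68 was at 0.788 CPM in the library labelled knockdown and 8.40 CPM in the library labelled overexpression, against 3.56 CPM in shControl. The part of these markers in the members' ratios was not tested. The group and the kind of column cannot be told apart. The median log2 ratio over the tested members, beside that over all genes, was 0.40 and -0.03 in dynamic suspension against shControl and -0.78 and -0.01 in conventional 3D culture against shControl. It was 0.26 and 0.01 for the library labelled knockdown and -0.51 and -0.02 for the library labelled overexpression, each against shControl, and -0.86 and -0.03 between the latter 2.

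**Figure D3:**
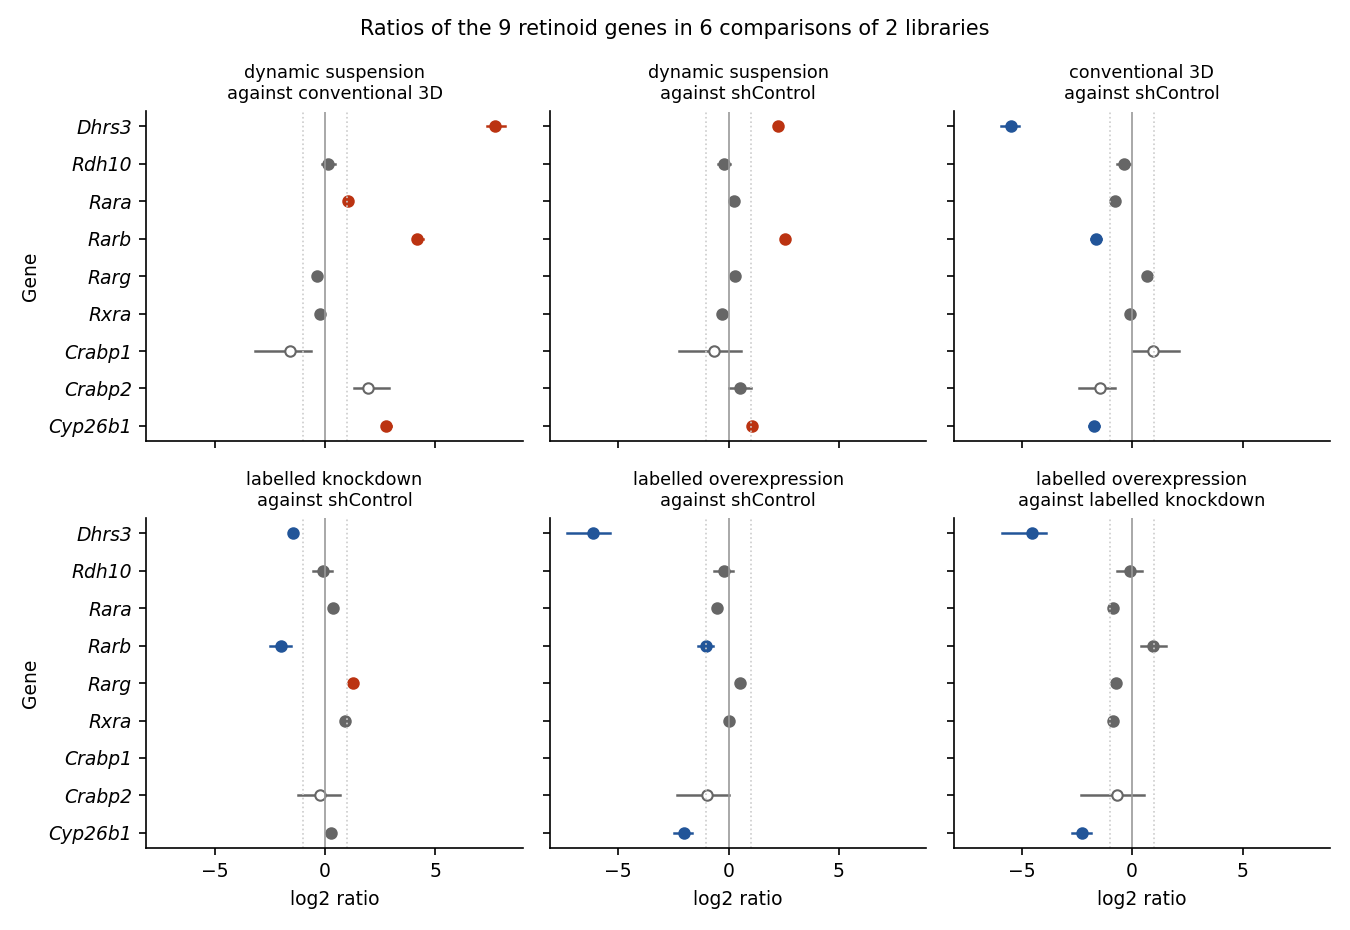
Log2 ratio of each of the 9 genes in each of the 6 comparisons of 2 libraries, with 95% counting intervals as bars; dotted lines mark 2-fold, red and blue points are higher and lower beyond 2-fold, open points fell short of a mean of 1 CPM, and pairs with a count of 0 are not drawn. Dhrs3 is beyond 2-fold in all 6 panels, Rdh10 in 0, and the share of all genes with such counts was not computed.

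The 6 comparisons share 5 libraries, and Dhrs3 helped choose the set by 1 of these comparisons. The share of all genes beyond 2-fold in all 6, or in 0, was not computed. Nothing is therefore read from the number of comparisons in which a member was beyond 2-fold. Dhrs3 was the only member beyond 2-fold in all 6 comparisons, while Rdh10, Rxra, Crabp1 and Crabp2 were beyond it in 0. Of these, Crabp1 was short of 1 CPM in all 6 and Crabp2 in each except dynamic suspension against shControl. Without that minimum Crabp2 was higher in dynamic suspension against conventional 3D culture (log2 ratio 1.97, interval 1.33 to 2.89) and lower in conventional 3D than in shControl (-1.46, interval -2.40 to -0.77). The profile of Dhrs3 over the 5 libraries was set beside those of the 12847 genes whose mean reached 1 CPM, by the root mean square difference of centred log2 CPM. The closest was Plscr2, a phospholipid scramblase family gene, at 1.17, with 0 CPM in conventional 3D culture and the library labelled overexpression and 2.32, 4.25 and 1.64 CPM in dynamic suspension, shControl and the library labelled knockdown. Lif, a cytokine of the interleukin-6 family, followed at 1.35, then Zfp469 at 1.44, Bmyc at 1.48 and Cabp7 at 1.49, the last 2 of which overlap another gene. Cyp26b1 was the closest other member to Dhrs3, at place 36 with a difference of 2.06, and Rarb stood at place 59 with 2.28. Seen from Rarb, the same difference of 2.28 puts Dhrs3 at place 11875. No gene lay close to Dhrs3, whose range across libraries was wide.

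Rarb had closer neighbours. Fos, an immediate early transcription factor gene, differed by 0.38, with 7.25 CPM in conventional 3D culture, 91.4 CPM in dynamic suspension, 11.2 CPM in shControl, 5.32 CPM in the library labelled knockdown and 10.3 CPM in the library labelled overexpression. The antisense gene 4930455G09Rik (0.43), the lincRNA gene Gm37855 (0.43), Vdr (0.46) and Wfdc3 (0.52) followed. Cyp26b1, at place 573 with 1.29, was the closest other member. Vdr encodes the vitamin D receptor, itself a partner of RXR, and was at 11.2 CPM in dynamic suspension and between 0.376 and 1.77 CPM in the other 4 libraries. These likenesses rest on 5 libraries and on 1 high library, dynamic suspension, and are descriptions.

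The rest of the pathway was read from lists of known genes, chosen with earlier results of these data known. Between dynamic suspension and conventional 3D culture 6.47% of all genes tested were higher and 7.68% lower. Nothing is read from the list counts in this or any other comparison. Of 9 genes of retinol uptake, binding and storage, 2 were measured between dynamic suspension and conventional 3D culture, with 0 higher and 1 lower. That was Fabp5, a fatty acid binding protein that can also carry retinoic acid, at 44.1 against 126.4 CPM (log2 ratio -1.52, interval -1.58 to -1.45). Of 17 other dehydrogenases and reductases of this step 8 were measured, with 0 higher and 0 lower and a median log2 ratio of 0.10. Of 4 genes of retinoic acid synthesis only Aldh1a3 was measured. This retinaldehyde dehydrogenase gene stood at 3.46 CPM in conventional 3D culture, 0.695 CPM in dynamic suspension, 6.64 CPM in shControl, 11.2 CPM in the library labelled knockdown and 2.68 CPM in the library labelled overexpression. It was lowest in dynamic suspension, where Dhrs3, Rarb and Cyp26b1 were highest (log2 ratio to conventional 3D culture -2.26, interval -2.83 to -1.82). Aldh1a1 and Aldh1a2 had 0 counts in dynamic suspension and at most 16 and 8 in any library.

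Among 13 partners of RXR 8 were measured, with 1 higher (Vdr, log2 ratio 4.77, interval 4.25 to 5.61) and 1 lower (Nr4a1, an immediate early orphan receptor, -1.09, interval -1.15 to -1.02). Rxrb was at 73.3 against 70.2 CPM and Rxrg had at most 1 count in any library. All 12 nuclear receptor corepressors and coactivators were measured, with 1 higher (the coactivator Ncoa3, 1.18, interval 1.10 to 1.27) and 0 lower. Of 19 known retinoic acid targets outside the members 8 were measured, with 3 higher and 0 lower (all genes 6.47% and 7.68%). Their median log2 ratio was 0.73, against -0.02 for all genes. The 3 were Prkca, a protein kinase C gene (1.76, interval 1.70 to 1.82), Bhlhe40, a transcriptional repressor (1.49, interval 1.44 to 1.55), and Cd38, an NAD-consuming surface enzyme (1.43, interval 1.30 to 1.57). Stra6, the retinol-binding protein receptor and a target gene, was short of 1 CPM in all 5 libraries, with 46 counts in dynamic suspension and from 3 to 10 elsewhere.

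**Figure D4:**
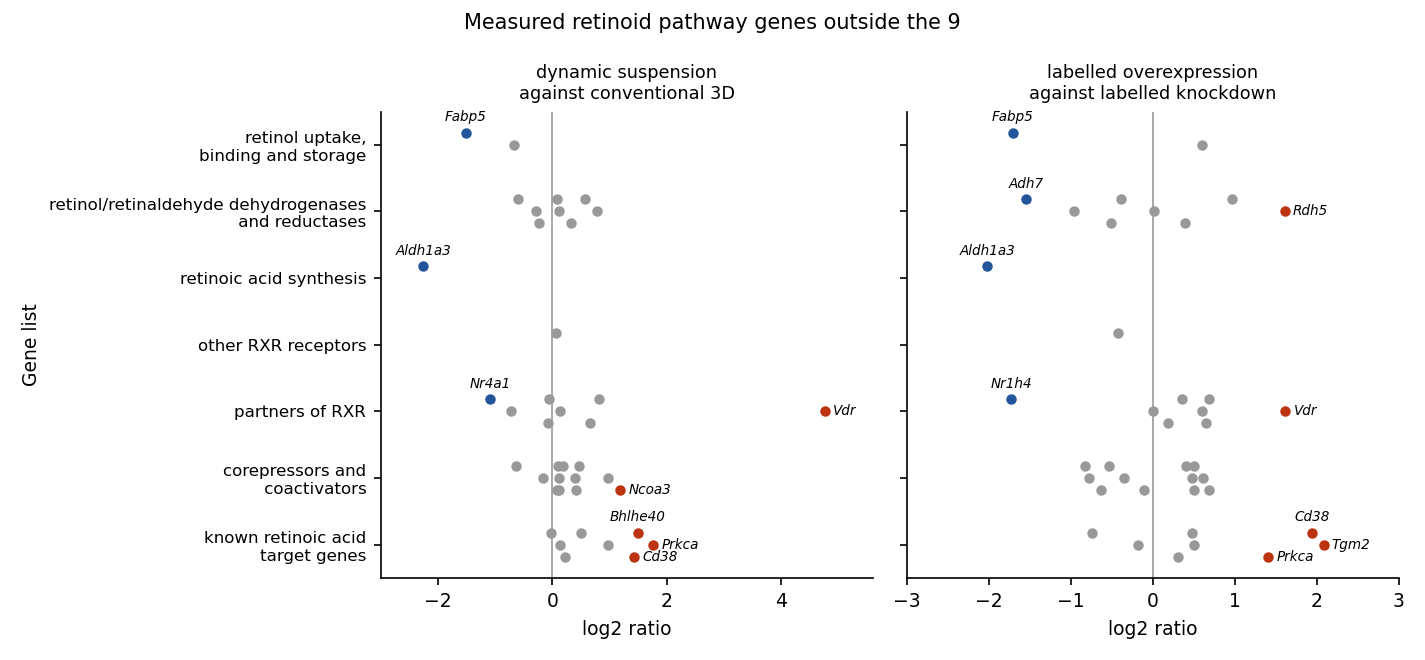
Log2 ratio of each measured gene of 7 retinoid pathway lists outside the 9 members, for dynamic suspension against conventional 3D culture and for the library labelled overexpression against the one labelled knockdown; each point is 1 gene, with red and blue for higher and lower beyond 2-fold. Aldh1a3 and Fabp5 are lower in both panels, and Vdr, Prkca and Cd38 are higher in both.

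In the library labelled overexpression against the one labelled knockdown, the same target list had 3 of 8 higher and 0 lower. Of all genes 17.5% were higher and 14.8% lower. The 3 were Tgm2, a transglutaminase gene (14.6 against 3.35 CPM, log2 ratio 2.08, interval 1.68 to 2.59), Cd38 (285 against 66 counts, 1.94) and Prkca (34.4 against 12.9 CPM, 1.41). Dhrs3 and Cyp26b1, targets by the same textbook account, were lower in this comparison. The measured targets were therefore not all in the same order between these 2 libraries. Vdr was at 28 against 7 counts (log2 ratio 1.62, interval 0.63 to 3.30). Aldh1a3 was at 2.68 against 11.2 CPM (-2.02, interval -2.57 to -1.59), and Fabp5 at 91.7 against 300.0 CPM (-1.71). Rdh5, a retinol dehydrogenase gene of the visual cycle, was higher (1.61) and Adh7, an alcohol dehydrogenase gene, lower (-1.54). Nr1h4, the bile acid receptor gene, was lower as well (-1.73).

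Against shControl, dynamic suspension had 5 of the 8 measured targets higher and 0 lower, with a median log2 ratio of 1.27, against 13.8% higher and 14.9% lower among all genes. Prkca had the highest ratio of them, at 183.8 against 16.5 CPM (3.47, interval 3.38 to 3.57). The target list was chosen with earlier results of these data known, so nothing is read from its counts against shControl. Conventional 3D culture had 2 higher and 1 lower of 8 (all genes 14.1% and 14.9%). The library labelled knockdown had 0 higher and 3 lower of 8 (all genes 8.04% and 15.6%), and the library labelled overexpression 1 higher and 1 lower of 8 (all genes 16.1% and 20.1%). Of the partners of RXR, Ppara was at 3.28 CPM in the library labelled overexpression and 0.617 CPM in shControl, and Thra, a thyroid hormone receptor gene, at 70.4 and 21.2 CPM. The cofactor genes Nrip1 (also in the target list), Ep300 and Ncoa1 had log2 ratios of 1.25, 1.24 and 1.14 in dynamic suspension against shControl. Fabp5 was at 327.4 CPM in shControl, the highest of the 5 libraries.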

How the data were processed

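The authors' deposited table gives 1 value per Ensembl gene and library. The columns of conventional 3D culture, dynamic suspension and shControl hold deposited estimated counts, taken as such because low values pile up at multiples of 4 (28.1%, 29.2% and 26.8% of values up to 40). The other 2 columns hold deposited counts (16.1% and 17.3%). cutadapt, HISAT2, StringTie, GRCm38.p6 and mm10 are named in the submitters' processing notes, and libraries were poly(A)-selected and strand-specific per the labels' protocols. The sources used here give neither the counting program nor its strand setting. The 54100 identifiers matched the GENCODE M21 annotation.

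Libraries were scaled with TMM (edgeR 4.0.16, R 4.3.3). Log2 ratios used a prior count of 2, with exact conditional binomial (Clopper-Pearson) 95% intervals, and levels had exact Poisson intervals. Ratios were tested on simulated data. No p-values were computed. The members and lists were chosen with earlier results of these data known. All members were named, plus up to 4 genes per list beyond 2-fold between the culture methods, up to 4 in the other comparisons, and the 5 profiles most like Dhrs3 and Rarb. Other genes named in the pathway lists were chosen after their values were seen. Alternatives covered scaling (totals, DESeq2 1.42.0, genes without overlap), the prior count and the CPM minimum.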

Additional observations from a re-analysis of the deposited data

How the results depend on the processing

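Of 378 member ratios under 7 alternatives, 1 changed sign, Rxra in the library labelled overexpression against shControl (0.03 to -0.06 with factors from genes that overlap no other gene), and 0 of those beyond 2-fold reversed. Calls changed in 14 cases, 4 of them by scaling to totals and the rest by the minimum level. With a mean of at least 10 CPM, 1 member was lower against shControl in each of conventional 3D culture, the library labelled overexpression and the one labelled knockdown, and 0 were lower in the library labelled overexpression against the one labelled knockdown, since fewer genes were tested. The same minimum gave 3.99% of genes higher and 5.06% lower in dynamic suspension against conventional 3D culture and 9.71% lower in the library labelled knockdown against shControl. Without a minimum, 1 member, Crabp1, was lower in dynamic suspension against conventional 3D culture, Crabp2 was higher there (1.97) and lower in conventional 3D culture against shControl (-1.46), and 11.1% of genes were higher in the former. Scaling to totals made 1 member, Rarb, higher in the library labelled overexpression than in the one labelled knockdown. An alternative chosen after seeing the data, estimated counts divided by 4 for the intervals, changed the call of 0 members with the minimum of 1 CPM kept. It was not run without that minimum, so it does not cover the calls of Crabp1 and Crabp2 made there. No replicate could be left out with 1 library per group. No paired analysis was possible because each group has 1 library and the labels pair none of them. Crabp1 and Crabp2 are limited by depth, with at most 25 and 86 counts.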
